A study of Mus musculus with 28 samples.

Results

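The miRNAs described here are 6 mature miRNAs known for their roles in lymphocytes, mmu-miR-150-5p, mmu-miR-342-3p, mmu-miR-181a-5p, mmu-miR-181b-5p, mmu-miR-181c-5p and mmu-miR-181d-5p. They were picked by name, with earlier results of these data known. All 6 were found among the 1966 miRNAs and 80668 RNAs measured. Small RNA was sequenced from the blood of 14 wild-type female C57BL/6N mice, an inbred laboratory strain, with no treatment named in the labels: 3 mice were 2 months old, 4 were 6 months, 3 were 8 months, 2 were 12 months and 2 were 18 months. After platelets and debris had been spun out, ultracentrifugation parted the plasma of each mouse into a pellet enriched in extracellular vesicles (EVs) and the EV-depleted remainder, called plasma here, giving 28 libraries. The protocol states that each animal was handled apart, but the plasma labels of 2-month replicates 2 and 3 share a code that joins both mice, and for these the replicate number alone decided which EV library was the partner.

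A mature miRNA guides an Argonaute protein to messenger RNAs, which it recognises mainly through its seed, bases 2 to 8, and whose translation and stability it lowers. miR-150 is abundant in resting mature B, T and natural killer cells and is known for restraining the transcription factor Myb. miR-342 is made from an intron of Evl, a gene for a regulator of actin filaments, and is enriched in lymphoid cells. miR-181a is high in immature thymocytes, where it sharpens the response of the T cell receptor. Circulating copies of such miRNAs travel in vesicles or in complexes with proteins, and the libraries do not show which cells released them.

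The mature sequences show how the 5 members with an entry in the RefSeq reference used here relate to each other. They are given 5′ to 3′ from RefSeq (GRCm38.p6), with the seed in capitals.
mmu-miR-342-3p: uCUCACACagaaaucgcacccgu
mmu-miR-181a-5p: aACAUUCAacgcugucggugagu
mmu-miR-181b-5p: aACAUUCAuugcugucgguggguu
mmu-miR-181c-5p: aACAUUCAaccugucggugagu
mmu-miR-181d-5p: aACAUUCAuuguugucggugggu
Among 1679 mature miRNAs in that table, the seed ACAUUCA occurred in 4, which are exactly the miR-181 members, and the seed CUCACAC of miR-342-3p in 1. Counted from 1 at the 5′ end, miR-181a-5p and miR-181b-5p differed by A9U, C10U and A21G (the base of miR-181a-5p first) and by length, 23 against 24 nt. miR-181d-5p differed from miR-181b-5p by C12U (the base of miR-181b-5p first) and is 23 nt long. miR-181c-5p, with 22 nt, was a single edit away from miR-181a-5p (edit distance 1), so that few bases tell their reads apart.

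The genes lie in clusters. Mir181a-1 and Mir181b-1 gave their mature forms from chr1:137966468-137966490 and chr1:137966650-137966673 on the plus strand, in introns of the transcript Gm4258, and the second also lies in an exon of the lincRNA A430106G13Rik. Mir181a-2 and Mir181b-2 have theirs at chr2:38852741-38852763 and chr2:38853845-38853868 on the plus strand, opposite to an intron of Nr6a1, a nuclear receptor gene. Mir181c and Mir181d lie on the minus strand at chr8:84178924-84178945 and chr8:84178759-84178781, in an intron of the germ cell gene Nanos3. The mature miR-342-3p was at chr12:108658680-108658702 on the plus strand, in an intron of Evl. miR-181a-5p and miR-181b-5p each have 2 loci with the same mature sequence, so their counts cannot be assigned to 1 locus. Fractions of a read occurred in 5 of 28 libraries for miR-181a-5p and in 10 of 28 for miR-181b-5p, and in none for the other members.

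The libraries held 928651 to 23905651 counts in plasma and 4764338 to 52753818 in EVs, of which 4977 to 82646 and 20063 to 203624 were counts of miRNAs. The 6 members together took 1.06% ± 0.247 of the miRNA counts in EVs and 1.32% ± 0.307 in plasma (SD, n = 14 each). In the shallowest library, plasma of 6-month replicate 1, a single count was worth more than the 1 RPM that defined expression. The red cell miRNA miR-451a took on average 14.9% of the miRNA counts in EVs and 16.4% in plasma. It was first among all miRNAs in every plasma library and ranked from 1 to 4 in the EV libraries. Because these are bulk samples, fewer vesicles or cells of a type and less of a miRNA in each cannot be told apart.

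miR-150-5p was by far the most abundant member by RPM. It had 25.2 RPM in the lowest EV library, a median of 42.7 and 196 in the highest, and in plasma 27.0, 55.0 and 143 RPM. RPM is the deposited value, the count divided by a library-wide number. In each fraction all 14 libraries detected miR-150-5p, whose median rank among miRNAs was 24.5 in EVs and 20 in plasma. The highest library in both fractions came from the same mouse, 12-month replicate 2. mmu-miR-342-3p was detected in all 28 libraries as well, with 3.91, 7.19 and 29.9 RPM (lowest, median and highest) in EVs and 5.07, 9.95 and 20.6 RPM in plasma.

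The miR-181 miRNAs were scarcer. mmu-miR-181a-5p spanned 1.38 to 12.3 RPM in EVs (median 2.70) and 0.757 to 6.87 RPM in plasma (median 3.24). For mmu-miR-181c-5p the range was 0.842 to 4.04 RPM in EVs (median 1.67) and 0.341 to 2.65 RPM in plasma (median 0.919). mmu-miR-181b-5p and mmu-miR-181d-5p stayed near the limit of detection. miR-181b-5p reached at most 2.41 RPM in EVs and 2.07 RPM in plasma, and was at 0 in 1 EV library, where 3 counts would be 0.651 RPM, and in 2 plasma libraries, where they would be 0.513 and 1.99 RPM. miR-181d-5p was at 0 in 5 of 14 plasma libraries, whose limits of 3 counts ran from 0.354 to 5.11 RPM, and had 1 to 25 counts in the EV libraries. These limits cover counting error only.

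**Figure D1:**
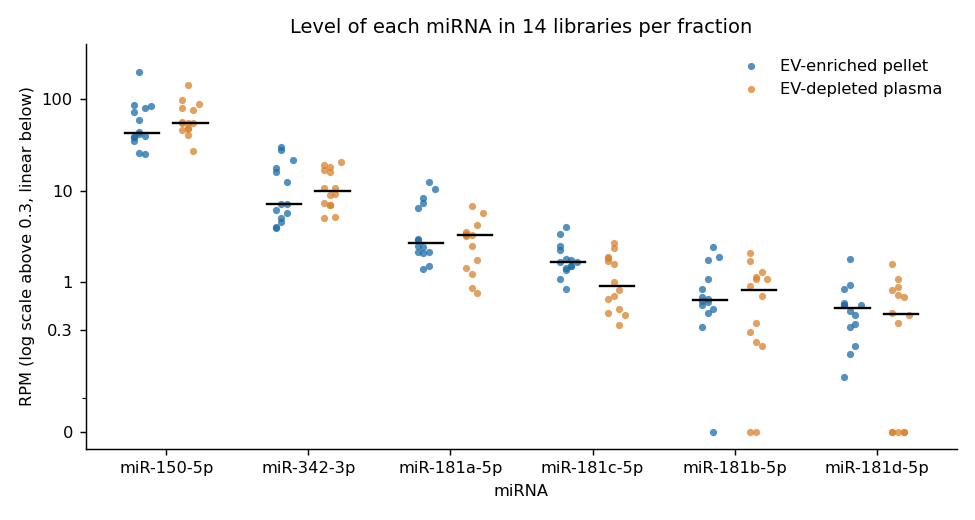
RPM of each of the 6 miRNAs (y axis, logarithmic above 0.3 and linear below) in the 14 EV and 14 plasma libraries (points), with the median of each fraction as a bar. miR-150-5p lies above miR-342-3p and miR-342-3p above miR-181a-5p in every library, while miR-181b-5p and miR-181d-5p reach 0 in some.

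The order of mean RPM was the same in both fractions: miR-150-5p, miR-342-3p, miR-181a-5p, miR-181c-5p, miR-181b-5p and miR-181d-5p. The mature forms printed above, which do not include miR-150-5p, are of nearly equal length. The study counts adapter ligation and PCR amplification among the sources of bias in small RNA libraries. Ratios of RPM between different miRNAs need therefore not be ratios of molecules. Mean RPM of miR-150-5p was 5.10 times that of miR-342-3p in EVs and 5.64 times in plasma, and miR-342-3p was 2.61 and 3.85 times miR-181a-5p. Both steps held in 14 of 14 libraries of each fraction. Below them the neighbours were not separated in every library: miR-181a-5p exceeded miR-181c-5p in 12 EV and 11 plasma libraries, miR-181c-5p exceeded miR-181b-5p in 12 and 9, and miR-181b-5p exceeded miR-181d-5p in 10 and 8.

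Within the miR-181 family, miR-181a-5p had the largest share of the pooled reads in both fractions. Of 1004.5 estimated family counts in EVs it took 58.0% (exact 95% binomial interval 54.8 to 61.0), and of 472 in plasma 53.4% (48.8 to 58.0). miR-181c-5p took 23.0% (20.4 to 25.7) in EVs and 22.0% (18.4 to 26.0) in plasma. The shares of miR-181b-5p were 11.4% (9.55 to 13.6) and 13.8% (10.8 to 17.2), and those of miR-181d-5p 7.57% (6.01 to 9.38) and 10.8% (8.15 to 14.0). The intervals of the fractions overlapped for each of the 4 miRNAs, and they cover counting error only, while single libraries varied more. That of miR-181a-5p ran from 37.3 to 73.1% over the EV libraries (median 50.3%) and from 26.3 to 83.3% over the plasma libraries (median 50.9%), while pooling weights each library by its counts. The share of miR-181c-5p ran from 10.5 to 43.8% over the EV libraries and from 5.17 to 73.7% over the plasma libraries.

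**Figure D2:**
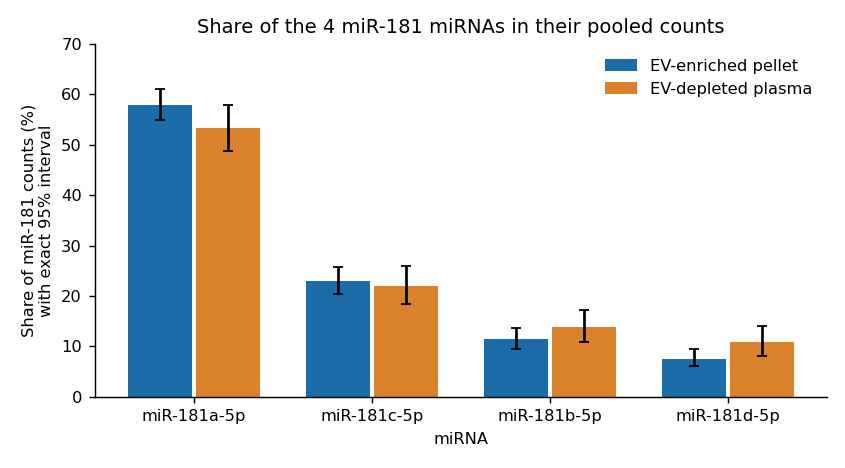
Share of miR-181a-5p, miR-181c-5p, miR-181b-5p and miR-181d-5p (y axis, %) in the miR-181 counts pooled over 14 libraries of EVs or plasma, with exact 95% binomial intervals as error bars. miR-181a-5p takes 58.0% in EVs and 53.4% in plasma, and the intervals of both fractions overlap for every miRNA.

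The opposite arms of these hairpins were nearly absent from the reads. miR-150-3p had 23 counts in all EV libraries and 20 in all plasma libraries, against 7978 and 5470 for miR-150-5p. miR-342-5p had 13 and 4 counts, against 1533 and 931 for miR-342-3p. No opposite arm of the miR-181 hairpins had more than 22 counts in a fraction.

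The first comparison asks whether the level of these miRNAs within a library differs between vesicles and the EV-depleted plasma of the same mice. Each scaling used is relative within a library, so amounts per vesicle or per volume of plasma cannot be read from it. After TMM normalization over miRNAs, which scales libraries by their bulk of unchanged miRNAs, miR-150-5p stood at 5881, 7943 and 14127 CPM (miRNA counts brought to a common library size; lowest, median and highest) in EVs and at 6424, 10581 and 17287 CPM in plasma. The ranges overlapped, yet the EV library of a mouse was below its plasma library in 14 of 14 mice, by 0.034 to 0.69 on the log2 CPM scale. By this measure 12 of 333 miRNAs (3.6%) were lower in EVs in every mouse. By RPM, miR-150-5p was lower in EVs in 9 of 14 mice.

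edgeR's quasi-likelihood test, run on the 28 libraries with age in the model, called 61 of 333 miRNAs (18.3%) as different between EVs and plasma (adjusted p under 0.05), 27 higher and 34 lower in EVs (28 and 15 under RPM scaling, 40 and 30 in DESeq2), and 0 of the 6 members. DESeq2 also called 0 of 6. At an unadjusted p under 0.05 edgeR picked 1 member, miR-150-5p, against 33.3% of all miRNAs. Its log2 difference, EV minus plasma, was -0.38 (SE 0.145, adjusted p = 0.0646). The median over the 6 members was -0.13 and over all 333 miRNAs 0.022.

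With the mouse as a block, so that each EV library is set against the plasma of its own animal, edgeR called 2 members lower in EVs, against 14.4% of all miRNAs called in that direction. These were miR-150-5p (log2 difference -0.36, SE 0.0759, adjusted p = 0.000716) and miR-342-3p (-0.28, SE 0.103, adjusted p = 0.0454). The call for miR-150-5p also came without the 2 mice of uncertain pairing (-0.35, adjusted p = 0.00219), while that for miR-342-3p did not (-0.22, adjusted p = 0.153). With the block and scaling to miRNA counts in place of TMM, miR-150-5p was called (-0.38, adjusted p = 0.000635) and miR-342-3p was not (-0.29, adjusted p = 0.0609). Neither passed under the deposited RPM scaling. That scaling moved the median difference of all miRNAs from 0.022 to 0.28 without the block. With it, the differences were -0.19 for miR-150-5p (adjusted p = 0.459) and -0.098 for miR-342-3p (adjusted p = 0.759), against a median of 0.22 over all miRNAs.

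miR-342-3p stood at 898, 1387 and 2977 CPM in EVs and at 1208, 1814 and 2685 CPM in plasma, overlapping ranges, with the EV library below its plasma library in 11 of 14 mice. Its difference without the block was -0.29 (SE 0.152, adjusted p = 0.184). The more abundant miR-181 miRNAs were on the other side: miR-181a-5p had 285, 510 and 1314 CPM in EVs and 173, 428 and 834 CPM in plasma, was higher in EVs in 9 of 14 mice, and had a fitted difference of 0.34 (SE 0.238, adjusted p = 0.342). For miR-181c-5p, higher in EVs in 10 of 14 mice, it was 0.38 (SE 0.298, adjusted p = 0.410). For miR-181b-5p and miR-181d-5p the differences were -0.078 and -0.19, each smaller than its SE of 0.338 and 0.392, and turned positive under RPM scaling (0.19 and 0.030).

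**Figure D3:**
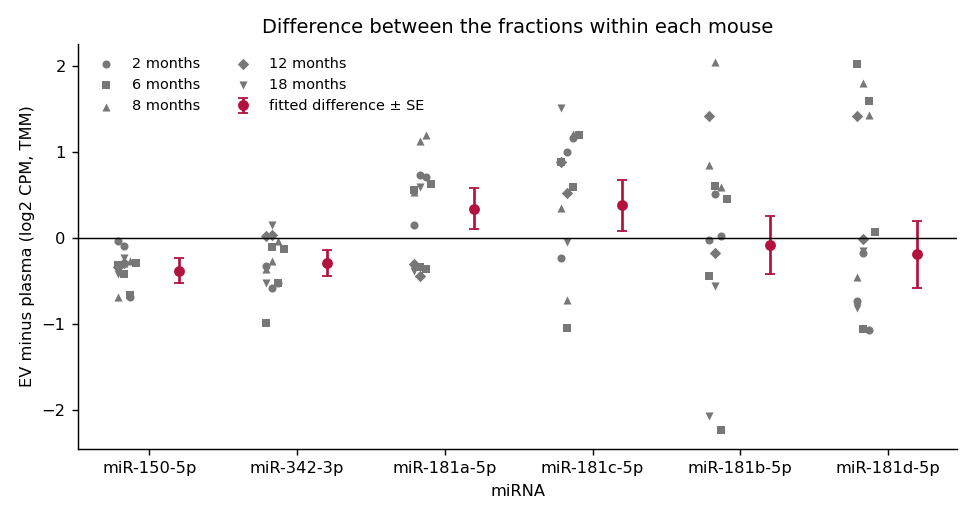
EV minus plasma in log2 CPM (TMM; y axis) for each of the 6 miRNAs, with 1 grey point per mouse (marker by age) and the fitted difference ± SE without the block in red. All 14 points of miR-150-5p lie below 0, while the points of the miR-181 miRNAs lie on both sides of it.

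Other miRNAs known from lymphocytes and leukocytes did not differ in 1 direction. Of a list of 12, 11 could be tested. miR-142a-3p, from a hairpin expressed throughout the blood lineages, was higher in EVs (0.77, SE 0.168, adjusted p = 0.00160), and miR-92a-3p of the miR-17-92 cluster was lower (-0.48, SE 0.144, adjusted p = 0.0181). The other 9 did not pass, and the median of the 11 was 0.022, as over all miRNAs. miR-155-5p, induced when lymphocytes are activated, reached 1 RPM in only 1 library and was not tested. Among 5 red cell miRNAs, miR-486a-5p and miR-486b-5p, which share nearly all their counts, were lower in EVs as well (-0.77 and -0.73, adjusted p = 0.00588 and 0.00777), whereas miR-451a (-0.10, adjusted p = 0.794), miR-144-3p (0.19, adjusted p = 0.509) and miR-144-5p (0.24, adjusted p = 0.420) did not pass. The summed level of the list overlapped between EVs (85806 to 381997 CPM) and plasma (111771 to 373651 CPM), and its part in the differences of miR-150-5p and miR-342-3p was not tested.

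The second comparison asks whether the members change with age in each fraction. miR-342-3p had the largest slope of the members, in EVs. Its EV libraries held 1005, 942 and 1339 CPM at 2 months, 898, 1289, 1342 and 2269 CPM at 6 months, 932, 1489 and 1540 CPM at 8 months, 1433 and 1991 CPM at 12 months, and 1786 and 2977 CPM at 18 months. Both 18-month libraries lay above all 2-month and all 8-month libraries, but 6-month replicate 4 and 1 of the 12-month libraries lay above the lower of them. In plasma miR-342-3p stood at 1270, 1434 and 1944 CPM at 2 months, 1825, 1386, 1954 and 2486 CPM at 6 months, 1208, 1803 and 1578 CPM at 8 months, 1413 and 1945 CPM at 12 months, and 2595 and 2685 CPM at 18 months. There the 18-month libraries were the highest of all, and the 4 younger ages overlapped.

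The edgeR slope of miR-342-3p in EVs was 0.074 log2 units per month (SE 0.0226, unadjusted p = 0.00409, adjusted p = 0.140). At an adjusted p under 0.05 edgeR called 0 of the 5 members tested in EVs, where it called 1 of 307 miRNAs (0.326%); DESeq2 called 0 of 5. At an unadjusted p under 0.05 edgeR picked 1 member, miR-342-3p, against 12.1% of all miRNAs. Without 6-month replicate 4 the slope was 0.077 and passed (adjusted p = 0.0237), beside 2.01% of miRNAs called as rising in that fit. Over 21 alternatives its adjusted p ran from 0.0237 to 0.763, the highest without the 18-month mice, and the slope was positive in all 21.

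In plasma the slope of miR-342-3p was 0.038 log2 units per month (SE 0.0212, adjusted p = 0.411). Neither edgeR nor DESeq2 called any of the 6 members there. edgeR called 0 of 304 miRNAs (0%), and at an unadjusted p under 0.05 it picked 0 members, against 15.5% of all miRNAs. The slopes of miR-342-3p in the fractions differed by 0.026 (SE 0.0294, adjusted p = 0.997). For the interaction of age and fraction edgeR called 0 of 333 miRNAs (0%) and DESeq2 0. At an unadjusted p under 0.05 edgeR picked 3.3% of miRNAs and 0 members. With the mouse as a block, edgeR called 0 members as well.

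**Figure D4:**
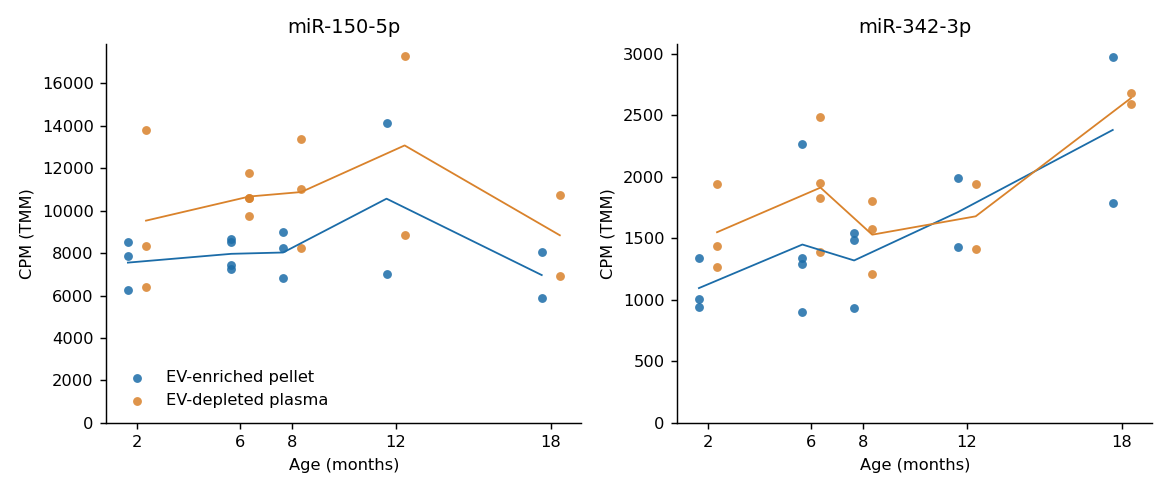
CPM after TMM normalization (y axis, from 0) of miR-150-5p and miR-342-3p against age in months (x axis), with 1 point per library and a line through the means of each age, for EVs and plasma. miR-342-3p is highest at 18 months on average in both fractions, and miR-150-5p shows its highest library in the same 12-month mouse in both.

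miR-150-5p had no such slope. Its EV libraries averaged 7551 ± 1160 CPM in the youngest mice, aged 2 months (SD, n = 3), 7965 ± 727 CPM in the 4 mice of 6 months, 8027 ± 1088 CPM in the 3 of 8 months, 10565 ± 5039 CPM in the 2 of 12 months and 6964 ± 1531 CPM in the 2 of 18 months. The peak at 12 months came from 1 mouse, replicate 2, with 14127 CPM against 7002 in the other. The plasma of the same 2 mice held 17287 and 8863 CPM. The fitted slope of miR-150-5p was 0.013 log2 units per month in EVs (SE 0.0198, adjusted p = 0.750) and -0.0018 in plasma (SE 0.0222, adjusted p = 0.996). The ratio of miR-342-3p to miR-150-5p within an EV library was -3.04 to -2.63 on the log2 scale at 2 months, -3.22 to -1.93 at 6 and 8 months and -2.83 to -0.98 at 12 and 18 months. In plasma the same ranges were -2.82 to -2.33, -3.45 to -2.08 and -3.15 to -1.36, and the ages overlapped in both fractions.

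The slopes of the miR-181 miRNAs were within 2 SE of 0 in both fractions. In EVs they were -0.021 for miR-181a-5p (SE 0.0304), -0.063 for miR-181b-5p (SE 0.0386) and -0.0027 for miR-181c-5p (SE 0.0314), and miR-181d-5p, at 1 RPM in only 1 EV library, was not tested. In plasma they lay between -0.032 for miR-181c-5p (SE 0.0551) and 0.032 for miR-181b-5p (SE 0.0467). Adjusted p-values ran from 0.480 to 0.977 over these tests. The medians of these miRNAs were 2 to 18.75 counts per library and fraction.

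**Figure D5:**
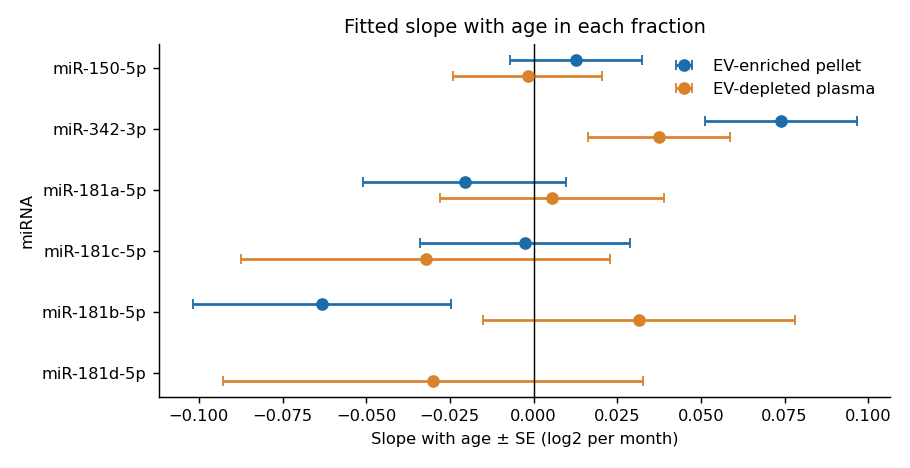
Fitted slope with age ± SE (x axis, log2 units per month; edgeR) of each miRNA in EVs and plasma. The slope of miR-342-3p in EVs, 0.074, is the farthest from 0 in units of its SE, and miR-181d-5p has no EV value because it was not tested there.

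The same question was put to the RPM values by rank correlation with age, with 0.5 on either side as the bound for an age-related miRNA. In EVs 0 of 5 members and in plasma 0 of 6 passed it, while 11.1% of all miRNAs did in EVs and 8.55% in plasma. The nearest was miR-342-3p in EVs, with rho = 0.488 (permutation p = 0.0787, adjusted p = 0.533 over 307 miRNAs) and Pearson's r = 0.650 (permutation p = 0.0119, adjusted p = 0.223, n = 14). Without the 18-month mice rho was 0.264 and r 0.501 (n = 12, permutation p = 0.404 and 0.0956). In these 12 EV libraries miR-181c-5p had the highest r of the members, 0.711 (permutation p = 0.00887, adjusted p = 0.305), with rho = 0.384 (permutation p = 0.217), against r = 0.399 over all 14 (permutation p = 0.152). On the TMM scale its r in the 12 was 0.289 (permutation p = 0.365). Over all 14 EV libraries, rho of miR-342-3p on the TMM scale was 0.587 (permutation p = 0.0291, adjusted p = 0.413). This was past the bound, as for 7.82% of all miRNAs in that direction. In plasma rho of miR-342-3p was 0.171 (permutation p = 0.558, adjusted p = 0.951) and r 0.444 (permutation p = 0.112, adjusted p = 0.607), and without the 18-month mice -0.217 and 0.0131. The other members lay between rho = -0.135 and 0.308 in EVs and between -0.0832 and 0.00674 in plasma.

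Of the 11 other lymphocyte and leukocyte miRNAs tested, edgeR and DESeq2 called 0 with age in either fraction. An unadjusted edgeR p under 0.05 came for 3 in EVs, against 12.1% of all miRNAs, and for 2 in plasma, against 15.5%. miR-146a-5p, a brake on innate signalling, had a slope of 0.099 per month in EVs (adjusted p = 0.0549), its relative miR-146b-5p 0.080 (adjusted p = 0.140) and miR-21a-5p, raised in activated immune cells, 0.061 (adjusted p = 0.140). In plasma the edgeR slopes were 0.077 for miR-146a-5p, 0.038 for miR-146b-5p and 0.049 for miR-21a-5p (adjusted p = 0.174, 0.544 and 0.174). The median slope of the 11 was 0.0025, and 0.0014 over all 307 miRNAs. The summed level of all 3 markers of myeloid cells and platelets was 10052 to 21650 CPM in EVs at 2 months, 15046 to 33606 at 6 and 8 months and 18114 to 32434 at 12 and 18 months, ranges that overlap. Taken singly, miR-223-3p had an edgeR slope of 0.079 per month in EVs (adjusted p = 0.0552) and 0.060 in plasma (adjusted p = 0.184). The slopes of miR-126a-3p were 0.032 and 0.018 (adjusted p = 0.659 and 0.840), and miR-223-5p had 0.065 in EVs (adjusted p = 0.620). The 5 red cell markers together had 274002 to 381997 CPM in EVs at 2 months, 119581 to 249008 at 6 and 8 months and 85806 to 308033 at 12 and 18 months. Their part in the slope of miR-342-3p was not tested.

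Likeness between members varied by pair and by fraction. The miRNAs of a pair share the depth and scaling of each library. Over all 28 libraries, Spearman's rho of log2 CPM between miR-150-5p and miR-342-3p was 0.293, with 0.0330 in the 14 EV libraries and 0.191 in the 14 plasma libraries. The highest values within a fraction were those of miR-342-3p with miR-181b-5p in plasma (0.722, against -0.0505 in EVs) and of miR-181a-5p with miR-181b-5p in EVs (0.565, against 0.354 in plasma). Both rest on few reads, since miR-181b-5p had a median of 3.75 counts in plasma, with 0 in 2 libraries, and of 5 in EVs. Among the other 332 miRNAs, the 3 most like miR-342-3p were miR-29b-3p (rho 0.741), miR-146a-5p (0.729) and miR-215-5p (0.705). For miR-181a-5p they were miR-125b-5p (0.703), miR-200b-3p (0.680) and miR-30a-5p (0.632), with its cluster partner miR-181b-5p in place 24 (0.465). For miR-150-5p the likeness was weaker throughout, with miR-5127 (0.480), miR-7216-5p (0.461) and miR-125a-5p (0.449) first. These places pool both fractions and all ages, so a difference between EVs and plasma, or a slope with age, that miRNAs share enters rho. EV minus plasma (log2) was -1.53 for miR-5127, -0.96 for miR-7216-5p and -0.56 for miR-125a-5p, beside -0.38 for miR-150-5p. Their rho with miR-150-5p within a fraction was not tested. Slopes with age per month in EVs were 0.083 for miR-29b-3p, 0.099 for miR-146a-5p and 0.066 for miR-215-5p, beside 0.074 for miR-342-3p. In plasma they were 0.079, 0.077 and 0.051, beside 0.038. None of these slopes passed the threshold, and the part of age in the likeness was not tested. miR-342-3p and miR-181c-5p ran against each other, with rho -0.577 over 28 libraries, -0.468 in EVs and -0.547 in plasma. These values were not tested and also rest on few reads, as miR-181c-5p had a median of 5.5 counts in plasma and 13 in EVs. EV minus plasma was -0.29 for miR-342-3p and 0.38 for miR-181c-5p, which enters the rho over 28 libraries.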

How the data were processed

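Libraries were grouped by fraction and age from the labels. What the authors deposited are estimated counts per RNA in 10 classes, not normalized, and a second table of signal in RPM, in which a constant of each library scales its counts. That constant does not equal the library's total. The study's methods name Bowtie and miRBase for mapping reads to miRNAs, but refer to an earlier report for the EV and plasma libraries, so whether this covers them, and how the constant was set, could not be told. The submitters' processing notes name the build mm10 and R 4.0.4.

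Counts were rounded and tested with edgeR 4.0.16 (glmQLFit, glmQLFTest, TMM over miRNAs; R 4.3.3, limma 3.58.1). A miRNA entered when over 10% of a fraction's libraries held 1 RPM or more. Benjamini-Hochberg adjusted p-values under 0.05 were called. SE is the absolute log2 change over the square root of F. The fraction was tested with age as a covariate, and age in months within each fraction. DESeq2 1.42.0, other scalings and filters, log2 age and leaving out mice or libraries were the alternatives. Correlations used 100000 two-sided permutations. The other tools were Python 3.11.15, pandas 2.3.3, numpy 2.4.6, scipy 1.17.1 and matplotlib 3.10.9. Scripts were tested on simulated data. Positions come from RefSeq GRCm38.p6, annotation from GENCODE.

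EV and plasma pair because both come from 1 animal by the labels. Deviations from the age means over 333 miRNAs correlated at -0.0894 to 0.356 within a mouse (median 0.130, over 0.1 in 7 of 14). At 12 and at 18 months, with 2 mice each, both mice of an age have the same value by construction. EV and plasma libraries of different mice were not compared, so these values do not test the pairing.

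The members and lists were chosen with earlier results of these data known. Named were the members, their opposite arms, 12 other lymphocyte or leukocyte miRNAs, marker lists (red cells, liver, myeloid cells and platelets, muscle) and the 3 miRNAs nearest by rho to miR-150-5p, miR-342-3p and miR-181a-5p. Precision is set by depth, from 928651 to 52753818 counts per library. PCR copies are not independent molecules, so intervals cover counting error only.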

Additional observations from a re-analysis of the deposited data

Results flagged for a closer look

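In a group of 4 mice, 1 library stood apart from the rest: at 6 months the EV library of replicate 4 held 10.5 RPM of miR-181a-5p, against 1.38, 1.52 and 2.51 RPM in the other 3. Of 12 such groups (6 miRNAs in 2 fractions) this was the 1 that passed Dixon's limit, and chance passes about 1 in 20. The same library had the most miR-342-3p at its age, and leaving it out brought the EV slope of miR-342-3p past the threshold.

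Reads outside the main measurement were assigned to Mir181a-1hg, the host lncRNA of a miR-181a and miR-181b hairpin pair. It had counts in all 14 EV libraries (62 to 478) and all 14 plasma libraries (12 to 205). Which fragments of the transcript these are was not tested.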

How the results depend on the processing

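Counts of members called between the fractions went from 0 to 2 with the mouse as a block, to 1 with the block and scaling to miRNA counts and to 1 with the block and without the mice of uncertain pairing (miR-150-5p both times), and to 1 (miR-150-5p, adjusted p = 0.0427) with at least 5 RPM in 50% of the libraries, where 2 members were left to test. The block changed no other call. The fits that join the block with another choice, and the TMM correlations without the 18-month mice, were chosen after seeing the data. In EVs, 0 to 1 members were called with age when each mouse was left out, and 0 to 1 lay beyond rho 0.5 (1 on leaving out any of replicates 1 and 3 at 2 months, 1, 2 and 4 at 6 months, and 1 and 3 at 8 months). With Pearson's r, TMM or scaling to miRNA counts 1 member did (miR-342-3p), and in plasma 1 did on the TMM scale without the 18-month mice, miR-181b-5p (rho -0.502). In all other alternatives the 6 counts of members were unchanged.

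None of the values whose direction turned passed the threshold. Between fractions, miR-181b-5p was 0.19 under RPM scaling, 0.20 with the block added, and 0.065 without a filter, and miR-181d-5p was 0.030 and 0.076 in the first 2 of these and 0.027 with the block but without the uncertain pairs. In EVs the slopes under RPM scaling were 0.012 for miR-181a-5p and 0.054 for miR-181c-5p, and the latter was 0.011 without a filter, 0.079 per log2 of age and 0.049 without the 18-month mice. In plasma miR-150-5p was 0.019 under RPM scaling, 0.00070 without libraries under 2000000 counts, 0.028 per log2 of age and 0.042 without the 18-month mice. There miR-181a-5p was -0.0019 scaled to miRNA counts, -0.00022 without a filter and -0.0051 per log2 of age. Without the 18-month mice miR-181b-5p was -0.079, against 0.032 with them, and miR-181c-5p 0.074 (0.049 per log2 of age), against -0.032. The interaction of miR-181b-5p was 0.0061 without these mice, against -0.105 with them (SE 0.0602, unadjusted edgeR p = 0.0909). rho in plasma was -0.217 for miR-342-3p without these mice (-0.0507 with TMM) and -0.0495 for miR-150-5p scaled to miRNA counts. Leaving out each mouse gave ranges that span 0: -0.17 to 0.12 for miR-181b-5p between fractions, -0.055 to 0.0087 for miR-181a-5p and -0.018 to 0.027 for miR-181c-5p in EVs, and in plasma -0.017 to 0.018 for miR-150-5p, -0.014 to 0.031 for miR-181a-5p, -0.013 to 0.069 for miR-181b-5p and -0.062 to 0.0031 for miR-181c-5p, with rho of miR-150-5p from -0.166 to 0.135. The causes were not tested.

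Over all miRNAs, 61 of 333 differed between fractions, against 35 of 116 with the stricter filter and 88 of 333 with the block. With age, 1 was called in EVs and 0 in plasma, against 7 and 7 without a filter, 3 and 8 without the 18-month mice, 5 and 0 per log2 of age, 2 and 2 in DESeq2, 0 and 0 under RPM scaling, and 8 and 2 without 6-month replicate 4. Leaving out each mouse gave 0 to 8 in EVs and 0 to 3 in plasma (3 and 3 without 18-month replicate 1, and 3 in EVs without 12-month replicate 1). miR-181d-5p, at 0 in 5 of 14 plasma libraries, is known there only to lie under the limits of 0.354 to 5.11 RPM.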

Other observations

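The liver list of 4 miRNAs summed to 7810 to 14007 CPM in EVs at 2 months, 4767 to 25977 CPM at 6 and 8 months and 9885 to 20351 CPM at 12 and 18 months, and over all plasma libraries to 3735 to 24478 CPM. The muscle list of 4 summed to 162 to 467 CPM in EVs at 2 months, 126 to 787 CPM at 6 and 8 months and 328 to 760 CPM at 12 and 18 months, and in plasma to 269 to 952 CPM. The ranges of the ages overlapped for both lists.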
